A study of Mus musculus with 10 samples.

Results

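The nuclear genes of the mitochondrial respiratory chain were described in murine embryonic stem cells (mESCs) that lack the histone chaperone DAXX or the histone variant H3.3. Genes were taken by symbol: Ndufa, Ndufb, Ndufc, Ndufs and Ndufv genes for complex I, Sdha to Sdhd for complex II, Uqcr genes for complex III, Cox4 to Cox8 genes for complex IV and Atp5 genes for complex V. The table held 84 such genes of 20325, of which 36 belong to complex I, 4 to complex II, 8 to complex III, 19 to complex IV and 17 to complex V. Of these, 81 had at least 1 CPM (a count divided by the library's total and brought to a common depth) in at least 2 libraries and were tested, among 13201 genes in all. The 3 that did not pass were Cox4i2, Cox8b and Cox8c, which are tissue-restricted forms of complex IV subunits. The symbols also took 3 genes that encode no subunit and that are kept in all counts: Cox4nb, a neighbour of Cox4i1 that encodes a part of a membrane protein complex of the endoplasmic reticulum, Atp5s, which encodes a coupling factor, and Atp5sl.

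PolyA RNA-Seq had been performed on 5 lines with 2 biological replicates each. The Daxx lines were of strain 129/SvEv and comprised Daxx-/- cells and Daxx-/- cells with a WT DAXX transgene (Daxx-/-;WT). The H3.3 lines were of mixed 129 x C57BL/6J background and comprised H3.3 KO cells alone, the same cells given WT H3.3 (H3.3 KO;WT), and the same cells given a mutant H3.3 made to bind DAXX without entering nucleosomes (H3.3 KO;L126A-I130A). Transgenes were epitope-tagged, were delivered by lentivirus from an EF1 promoter and were selected with puromycin. All lines grew without feeders in 2i+LIF medium, which holds the inhibitors CHIR99021 and PD0325901. No unmodified parent line was among the libraries analysed here, and how many clones each line stands for is not given in the sources used here.

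The respiratory chain passes electrons from NADH and succinate to oxygen and stores the energy as a proton gradient across the inner mitochondrial membrane. Complex I (NADH dehydrogenase) and complex II (succinate dehydrogenase) feed ubiquinone, complex III (cytochrome bc1) passes the electrons to cytochrome c, and complex IV (cytochrome c oxidase) reduces oxygen. Complex V (ATP synthase) uses the gradient to make ATP. Most subunits are encoded in the nucleus and a few in mitochondrial DNA; the latter genes were not analysed here. Naive mESCs in 2i+LIF use both glycolysis and respiration, and some complex IV subunits exist as paired genes, a common form and a form known from muscle or testis. The transcription factors NRF1, GABPA and YY1 are known to bind promoters of many of these genes.

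Promoters are shown for Uqcr10, which had the lowest p between the Daxx and the H3.3 lines, for Cox6a1 and Ndufb7, which were also lower in H3.3 KO than in Daxx-/- cells, and for Cox6b1 and Cox6b2, whose balance differed between the families of lines. They were chosen after their values and letters were seen. Each run is the 250 bases before the annotated start, on the strand of the gene, from RefSeq on GRCm38.p6. Capitals mark matches, on either strand, to the NRF1 core GCATGCGC, the ETS core CCGGAAG bound by GABPA, or the YY1 core AAGATGGCG. Positions count back from -1, the base just before the start. The Uqcr10 promoter (chr11:4704345-4704594, minus strand) held none of these letters, and neither did the whole windows of Ndufa1, the gene of next lowest p between the KO lines, and Cox7b. The Cox6a1 promoter (chr5:115348959-115349208, minus strand) held overlapping NRF1 cores at -162 and -160, since this core nearly reads the same on both strands, and an ETS core at -16. The Ndufb7 promoter (chr8:83566508-83566757, plus strand) held an ETS core at -20, and the Cox6b1 promoter (chr7:30626115-30626364, minus strand) held an ETS core at -28. The Cox6b2 promoter (chr7:4753095-4753344, minus strand) held none of them in this window.
Uqcr10: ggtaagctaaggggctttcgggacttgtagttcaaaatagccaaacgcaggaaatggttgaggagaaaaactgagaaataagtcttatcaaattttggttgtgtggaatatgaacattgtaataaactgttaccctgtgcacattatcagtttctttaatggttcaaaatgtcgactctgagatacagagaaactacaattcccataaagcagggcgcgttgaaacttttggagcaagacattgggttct
Cox6a1: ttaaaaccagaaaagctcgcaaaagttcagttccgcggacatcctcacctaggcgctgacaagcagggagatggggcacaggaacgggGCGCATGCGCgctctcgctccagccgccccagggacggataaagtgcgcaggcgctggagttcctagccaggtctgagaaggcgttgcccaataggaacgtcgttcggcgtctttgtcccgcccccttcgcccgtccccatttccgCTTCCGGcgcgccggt
Ndufb7: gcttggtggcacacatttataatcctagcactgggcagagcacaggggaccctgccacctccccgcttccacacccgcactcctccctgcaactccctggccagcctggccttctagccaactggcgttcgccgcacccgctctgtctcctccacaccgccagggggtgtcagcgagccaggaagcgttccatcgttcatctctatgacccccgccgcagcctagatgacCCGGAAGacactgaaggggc
Cox6b1: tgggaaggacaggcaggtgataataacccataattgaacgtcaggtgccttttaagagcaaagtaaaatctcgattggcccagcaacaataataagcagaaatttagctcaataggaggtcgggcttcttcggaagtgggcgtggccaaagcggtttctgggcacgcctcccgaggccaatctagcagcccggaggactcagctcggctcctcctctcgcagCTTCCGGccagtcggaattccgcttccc
Cox6b2: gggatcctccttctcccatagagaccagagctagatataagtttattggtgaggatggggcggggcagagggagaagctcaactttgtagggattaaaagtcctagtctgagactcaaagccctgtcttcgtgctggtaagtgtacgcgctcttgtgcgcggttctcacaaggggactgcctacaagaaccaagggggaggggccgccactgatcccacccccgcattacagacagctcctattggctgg

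Over the whole RefSeq window of 250 bases before to 50 bases after the start, 69 of the 84 genes had a promoter entry and were set beside 17491 protein-coding genes. The NRF1 core was found in 10 of the 69 (14.5%) and in 3.93% of all promoters. The ETS core was found in 16 of the 69 (23.2%) and in 12.9% of all promoters, and the YY1 core in 8 of the 69 (11.6%) and in 2.14% of all promoters. At least 1 of these cores was present in 28 of the 69 (40.6%) and in 17.6% of all promoters. The 10 genes with an NRF1 core were Atp5g2, Atp5k, Atp5l, Cox6a1, Ndufa11, Ndufa6, Ndufa8, Sdhb, Uqcr11 and Uqcrc1. A match is a description of the letters and not a bound site.

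Levels are given as CPM, scaled with median-of-ratios factors of 0.936 to 1.04, on library totals of 15463625 to 21396585 expected counts. The H3.3 gene H3f3a had 2.84 to 10.9 CPM in the H3.3 lines and 381 to 494 CPM in the Daxx lines. H3f3b, the other H3.3 gene, lay between 139 and 720 CPM in the H3.3 lines and does not check the deletion, since which part of it was removed is not given in the sources used here. Daxx was at 82.5 and 72.8 CPM in Daxx-/- cells and at 206 and 206 CPM with the DAXX transgene. It lay from 59.3 to 101 CPM in the H3.3 lines, so that its level in Daxx-/- cells was not below that of lines with an intact gene and does not check the deletion. The summed level of 7 naive stem cell markers was from 3280 to 4050 CPM in the Daxx lines and 4320 to 5360 CPM in the H3.3 lines, with none at 0. The summed level of 7 fibroblast markers was from 12.4 to 40.9 CPM in the Daxx lines and 4.38 to 11.1 CPM in the H3.3 lines, most of it from Thy1 and Col1a1, with 2 to 5 of the 7 at 0 in a library and Col3a1, Lum and Dcn at no more than 3 counts in any. The summed level of 6 primitive endoderm markers was from 4.61 to 16.8 CPM in the Daxx lines and 6.34 to 12 CPM in the H3.3 lines. That of 6 muscle markers was from 2.72 to 3.94 CPM in the Daxx lines and 0.943 to 2.44 CPM in the H3.3 lines.

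Together the 84 genes took between 1.26% and 1.52% of the counts of a library. Per length of transcript, the most abundant was Atp5b, which encodes the catalytic beta subunit of ATP synthase, at 1160 CPM per kilobase as a mean over the 10 libraries. Atp5g2, one of the genes for the c subunit that forms the membrane ring, followed at 605 CPM per kilobase, and Atp5a1, for the alpha subunit, at 533 CPM per kilobase. Complex IV was led by Cox5a, Cox6a1 and Cox4i1 at 475, 461 and 460 CPM per kilobase. Among the genes placed in complex I by symbol, Ndufa4 led at 438 CPM per kilobase and Ndufv3 was lowest at 36.4 CPM per kilobase. The protein of Ndufa4 is now assigned to complex IV, and the gene is kept in complex I in all counts. In complex II the values were 114 CPM per kilobase for the flavoprotein gene Sdha, 115 for the iron-sulfur gene Sdhb, 46.1 for the anchor gene Sdhc and 144 for the anchor gene Sdhd.

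**Figure D1:**
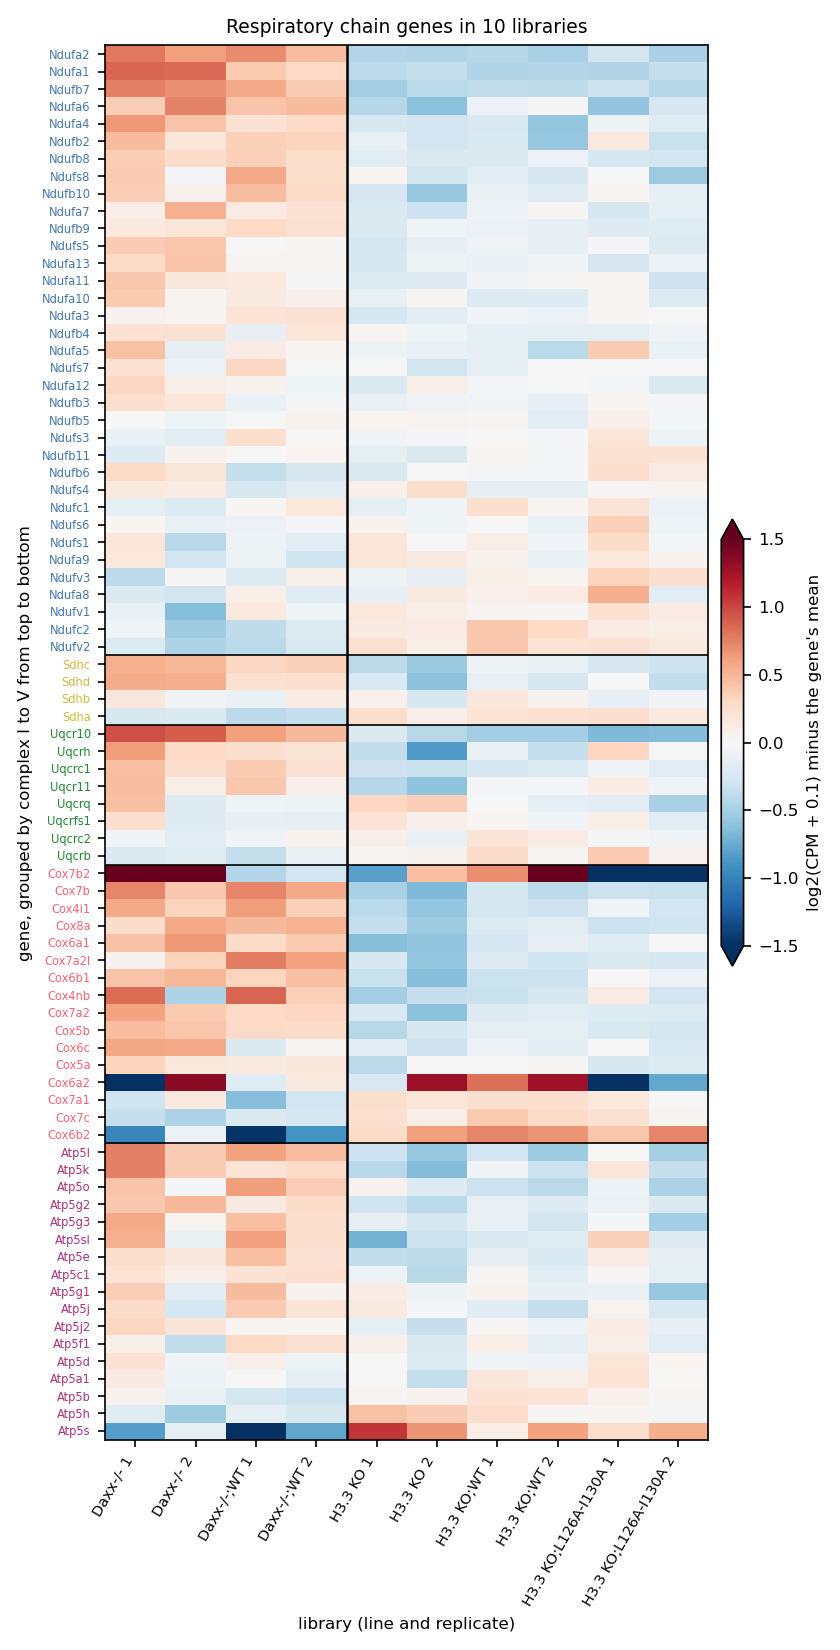
Level of 80 of the 81 tested respiratory chain genes (rows, grouped by complex I to V) in the 10 libraries (columns), as log2(CPM + 0.1) minus the mean of the gene over the libraries; red is above and blue below that mean, and values beyond 1.5 share the end colours. The 33 genes whose 6 H3.3 libraries all lay below the 4 Daxx libraries are mostly red left of the vertical line and mostly blue right of it.

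The first question was whether a transgene that restores DAXX moves respiratory chain genes in Daxx-/- cells. The data showed no called difference: 0 of 81 genes passed an adjusted p of 0.05 in edgeR's quasi-likelihood test, where 1.41% of all genes tested did. By DESeq2, 5 genes passed, and by limma 1. At an unadjusted p under 0.05 there were 12 genes, or 14.8%, against 21.8% of all genes tested. The median log2 fold change was -0.07 over the 81 genes and -0.02 over all genes tested. Both libraries with the transgene lay above both Daxx-/- libraries for 11 genes (13.6%, background 21.8%) and below them for 25 genes (30.9%, background 24.7%).

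The genes of lowest p in that comparison were Cox6c, Ndufb6 and Ndufa1, which encode small subunits of complexes IV and I. Cox6c was at 294 and 291 CPM in Daxx-/- cells and at 169 and 199 CPM with DAXX, so that the libraries did not overlap. Its level was 1.59-fold lower with DAXX (log2 fold change -0.67, SE 0.14, adjusted p = 0.0544). It passed in 6 of the alternative settings, DESeq2, limma at both pseudocounts and the replicate block among them. Ndufb6 was at 89.4 and 82.0 CPM without and 56.7 and 61.3 CPM with DAXX (adjusted p = 0.0776), and Ndufa1 was at 66.7 and 65.4 CPM without and 47.8 and 44.5 CPM with DAXX (adjusted p = 0.0779). Both passed by DESeq2 (adjusted p = 0.011 and 0.0125) and with the replicate block (adjusted p = 0.0324 for each). The exons of Cox6c and Ndufb6 share bases with Vps13b and Smim27 on the other strand in the GENCODE annotation of GRCm38, and reads counted without strand cannot be told apart there.

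The second question was whether H3.3 moves the genes in H3.3 KO cells. With WT H3.3, 0 of 81 genes passed in edgeR, DESeq2 or limma, where 0.25% of all genes tested passed in edgeR, and 5 genes (6.17%) had an unadjusted p under 0.05, against 13.3% of all genes tested. Over the 81 genes the median log2 fold change was 0.10, and 0.02 over all genes tested. Both WT H3.3 libraries lay above both H3.3 KO libraries for 35 genes (43.2%, background 29.3%) and below them for 14 genes (17.3%, background 26.7%). In complex IV, 12 of 16 genes lay above and 0 below, and the fitted change was positive for 16 of 16 genes with a median of 0.20 on the log2 scale. The fitted change was positive for 6841 of the 13201 genes tested. The lowest p in complex IV was that of Cox6a1, the common form of subunit 6A, which was at 163 and 168 CPM in H3.3 KO cells and at 212 and 233 CPM with WT H3.3. Its log2 fold change of 0.43 (SE 0.13) had an adjusted p of 0.237. Sdhc was at 107 and 96.0 CPM in H3.3 KO cells and 134 and 132 CPM with WT H3.3 (adjusted p = 0.231). Uqcr11, a small subunit of complex III, was at 55.4 and 49.1 CPM against 73.1 and 73.0 CPM (adjusted p = 0.281).

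With L126A-I130A H3.3, 0 of 81 genes passed in edgeR or limma, where 0.962% of all genes tested passed in edgeR, and 3 passed in DESeq2. An unadjusted p under 0.05 was reached by 11 genes (13.6%), against 16.9% of all genes tested. The 81 genes had a median log2 fold change of 0.08, and all genes tested 0.03. Both mutant libraries lay above both H3.3 KO libraries for 26 genes (32.1%, background 25.8%) and below them for 11 genes (13.6%, background 24.2%). In complex IV, 8 of 16 genes lay above and 3 below, and the fitted change was positive for 11 of 16 genes. Cox6a1 was at 224 and 255 CPM with the mutant, a log2 fold change of 0.53 (SE 0.13, adjusted p = 0.0964) over the H3.3 KO libraries that the WT comparison shares. Uqcrh, the hinge subunit of complex III, was at 70.8 and 50.6 CPM in H3.3 KO cells and at 115 and 90.9 CPM with the mutant (log2 fold change 0.76, SE 0.21, adjusted p = 0.112). Cox6a1 and Uqcrh passed by DESeq2 and with the replicate block.

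The mutant was also set beside WT H3.3, which separates binding of DAXX from deposition in the design of the study. Here 0 of 81 genes passed in edgeR, against 0.53% of all genes tested, and 1 gene, Cox7b2, passed by DESeq2 and by limma on log2(CPM + 0.1). An unadjusted p under 0.05 was reached by 2 genes (2.47%, background 12.3%). Their median log2 fold change was 0.02, and 0.00 over all genes tested. Both mutant libraries lay above both WT H3.3 libraries for 15 genes (18.5%, background 22.0%) and below for 20 genes (24.7%, background 23.2%). In complex IV, 1 of 16 genes lay above and 8 below. Ndufa6, an accessory subunit of complex I, was at 70.9 and 73.7 CPM with WT H3.3 and at 50.1 and 63.1 CPM with the mutant (log2 fold change -0.35, SE 0.17, adjusted p = 0.457).

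How large a change these comparisons leave room for can be read from the intervals of the fit. The 95% interval of a log2 fold change had a median half-width of 0.35 in each of the 4 comparisons within a family of lines. The whole interval lay within 2-fold in either direction for 76 of 81 genes in the DAXX comparison, 78 when WT H3.3 was added, 74 for the mutant against H3.3 KO and 78 for mutant over WT H3.3. A direct test of whether the DAXX transgene and the WT H3.3 transgene differ in their change gave 0 of 81 genes in edgeR and in limma, against 0.0455% of all genes tested, and 3 genes (Cox6c, Cox7b2 and Sdhc) in DESeq2. An unadjusted p under 0.05 was reached by 11 genes (13.6%), near the 13.9% of all genes tested.

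**Figure D2:**
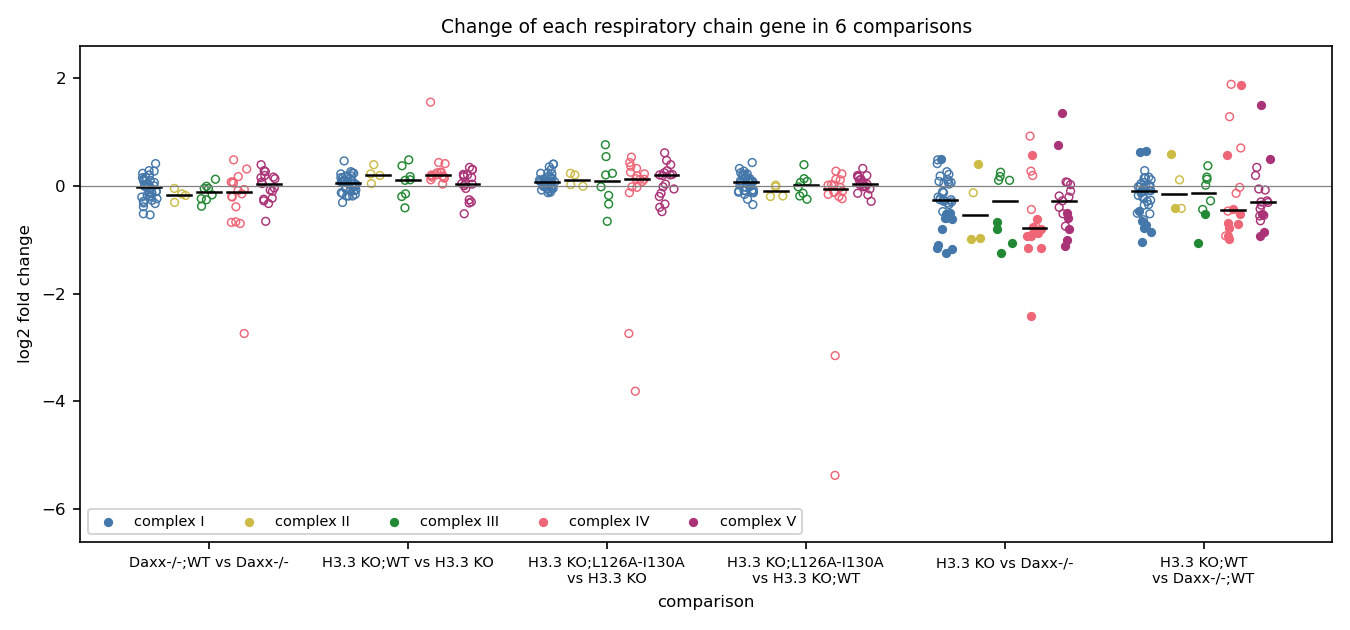
Log2 fold change of each of the 81 tested genes (points, coloured by complex) in 6 comparisons between lines, with the median of each complex as a bar; filled points passed an adjusted p of 0.05 and open points did not. The first 4 comparisons hold open points only, and the last 2 hold 36 and 26 filled points.

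Many chain genes differed between the families of lines. Between the KO lines, 36 of 81 genes (44.4%) were called, against 23.7% of all genes tested. Of these, 31 genes (38.3%, background 12.2%) were lower in H3.3 KO than in Daxx-/- cells and 5 genes (6.17%, background 11.5%) were higher. Both H3.3 KO libraries lay below both Daxx-/- libraries for 44 genes (54.3%, background 29.3%) and above them for 14 genes (17.3%, background 30.9%). The median log2 fold change was -0.30 over the 81 genes and -0.02 over all genes tested. The families differ in strain, in origin and in the deleted gene at once, and these cannot be told apart. The stem cell, fibroblast and muscle markers given above also differed between the families, and their part in these differences was not tested. Without replicate 2 of H3.3 KO, 14 genes were called, and in a fit of these 4 libraries alone 20 were called, with 0 higher in either.

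The rescued lines of the families, H3.3 KO;WT and Daxx-/-;WT, share no library with the KO lines and gave a second reading of the families. They were made from the same KO cells and tested in the same fit, so the readings are not independent. The rescued lines also carry different transgenes, H3.3 and DAXX, so this reading is not of the same difference. In them 26 of 81 genes (32.1%) were called, against 17.7% of all genes tested, 19 lower in H3.3 KO;WT (23.5%, background 8.27%) and 7 higher (8.64%, background 9.42%). Both H3.3 KO;WT libraries lay below both Daxx-/-;WT libraries for 45 genes (55.6%, background 34.8%) and above for 18 genes (22.2%, background 35.2%). Here the median log2 fold change was -0.20, and 0.00 over all genes tested. Lower in both readings were 17 genes (21%), against 4.76% of all genes tested, and higher in both were 4 genes (4.94%), against 5.28%. The sign agreed for 72 of 81 genes (88.9%) and for 71.4% of all genes tested. Each left-out library cut the calls between the rescued lines: 4 remained without replicate 1 and 11 without replicate 2 of Daxx-/-;WT, and 6 without replicate 1 and 3 without replicate 2 of H3.3 KO;WT. All of these were among the 26, and a line left with 1 library is assumed to vary like the other lines. In bulk RNA, fewer cells that express a gene and less RNA per cell cannot be told apart.

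**Figure D3:**
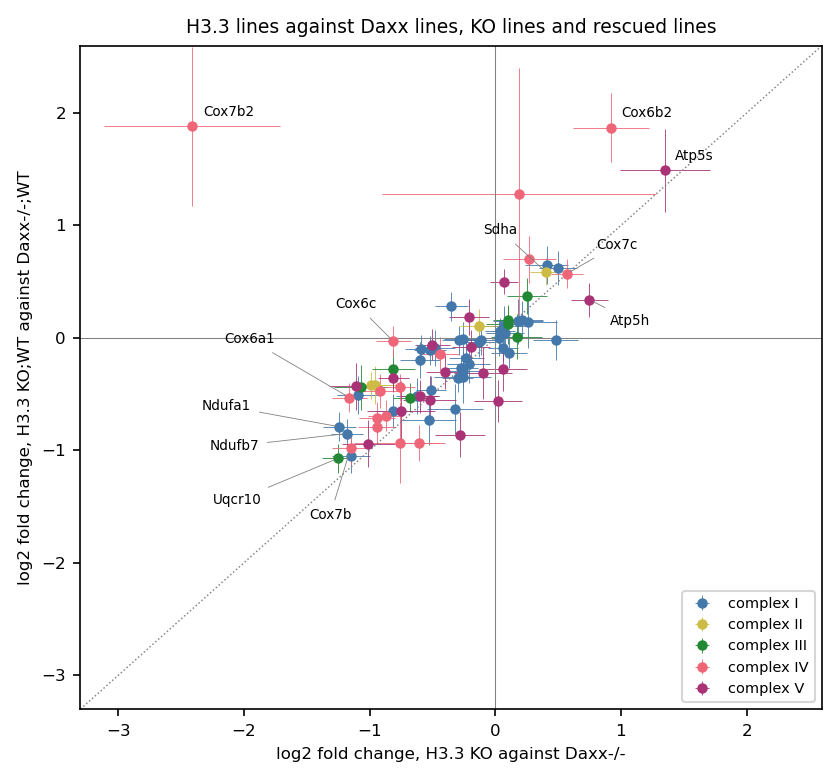
Log2 fold change (points, with SE bars) of each of the 81 tested genes between the KO lines (horizontal) and between the rescued lines (vertical), coloured by complex; the dotted line marks equal values and 12 genes are named. The 51 genes with negative values in both readings fill the lower left, and Cox7b2 lies far from the line.

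In complex I, 10 of 36 genes were called lower in H3.3 KO than in Daxx-/- cells and 1 higher, against 12.2% and 11.5% of all genes tested. The lowest p were those of the accessory subunits Ndufa1 and Ndufb7, with Ndufa2 next. Ndufa1 was at 66.7 and 65.4 CPM in Daxx-/-, 47.8 and 44.5 CPM in Daxx-/-;WT, and between 26.4 and 28.6 CPM in all 6 libraries of the H3.3 lines. Its level in H3.3 KO was 2.36-fold lower than in Daxx-/- (log2 fold change -1.24, SE 0.13, adjusted p = 0.00106). Ndufb7 was at 95.6, 90.8, 83.8 and 73.8 CPM in the 4 Daxx libraries and between 39.6 and 45.6 CPM in the H3.3 lines, a 2.26-fold difference between the KO lines (log2 fold change -1.18, SE 0.13, adjusted p = 0.00126). Ndufa2 lay from 72.1 to 90.2 CPM in the Daxx lines and 37.2 to 43.3 CPM in the H3.3 lines. None of the 3 genes had libraries of the families that overlapped.

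Core subunits of complex I hold the flavin and the iron-sulfur clusters, and Ndufs1, Ndufs3, Ndufs7, Ndufs8 and Ndufv1 among them were not called between the KO lines. Ndufs1 was at 202 and 133 CPM in Daxx-/- and at 202 and 177 CPM in H3.3 KO cells. Ndufs3 was at 65.7 and 62.4 CPM against 68.6 and 69.6 CPM. Ndufs7 was at 59.3 and 48.2 CPM against 50.9 and 42.3 CPM, and Ndufs8 at 67.2 and 50.8 CPM against 52.3 and 42.5 CPM. Ndufv1, the NADH-binding subunit, was at 161 and 112 CPM against 194 and 186 CPM (adjusted p = 0.0782). Ndufv2 was called, at 114 and 94.7 CPM in Daxx-/- and 154 and 139 CPM in H3.3 KO cells, 1.41-fold higher (adjusted p = 0.0387), and 1.53-fold higher between the rescued lines (adjusted p = 0.0225). Its call between the KO lines was lost in a fit of those libraries alone and with either H3.3 KO library left out. The call between the rescued lines was lost without replicate 1 of Daxx-/-;WT. Ndufa4 and Ndufb2, the genes of highest and lowest CPM placed in complex I by symbol, were at 301 and 258 and at 35.6 and 29.1 CPM in Daxx-/- cells. In H3.3 KO cells they were at 162 and 158 CPM (adjusted p = 0.0076) and at 23.7 and 21 CPM, of which the latter was called between the rescued lines (adjusted p = 0.0477), a call lost in 5 alternative settings.

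In complex II, Sdha and the anchor subunits went opposite ways. Sdhc and Sdhd, the membrane anchors, were lower in H3.3 KO than in Daxx-/- cells by 1.98-fold (log2 fold change -0.99, SE 0.12, adjusted p = 0.0016) and 1.94-fold (log2 fold change -0.96, SE 0.17, adjusted p = 0.00595). Sdhc was at 204 and 199 CPM in Daxx-/-, 175 and 181 CPM in Daxx-/-;WT and between 96.0 and 134 CPM in the H3.3 lines. Between the rescued lines Sdhc was 1.34-fold lower (adjusted p = 0.04), a call lost in 6 alternative settings. Sdhd was 1.34-fold lower there and was not called (adjusted p = 0.114). Sdha, the flavoprotein that oxidises succinate, was higher, at 277 and 281 CPM in Daxx-/-, 249 and 256 CPM in Daxx-/-;WT and between 347 and 392 CPM in the H3.3 lines. The differences of 1.32-fold (adjusted p = 0.0389) between the KO lines and 1.5-fold (adjusted p = 0.0124) between the rescued lines were both called, but Sdha lost the call in 6 and 4 alternative settings. Sdhb, the iron-sulfur subunit, had 122 to 147 CPM in the Daxx lines and 111 to 147 CPM in the H3.3 lines, overlapping ranges, and was not called.

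In complex III, 4 of 8 genes were called lower and 0 higher between the KO lines, against 12.2% and 11.5% of all genes tested. Uqcr10, a small subunit, had the lowest p of all 81 genes in both readings. It was at 254 and 244 CPM in Daxx-/-, 199 and 183 CPM in Daxx-/-;WT, 112 and 97.3 CPM in H3.3 KO, 90.8 and 91.2 CPM in H3.3 KO;WT and 82.5 and 82.9 CPM in the mutant line. The level in H3.3 KO was 2.38-fold lower (log2 fold change -1.25, SE 0.13, adjusted p = 0.00088) and the level in H3.3 KO;WT 2.10-fold lower (log2 fold change -1.07, SE 0.13, adjusted p = 0.00192). The call held in every alternative run in both readings, with an adjusted p of at most 0.0284. Uqcrc1, a core protein of the complex, lay from 417 to 489 CPM in the Daxx lines and 285 to 350 CPM in the H3.3 lines. Uqcrb lay the other way, 103 to 123 CPM in the Daxx lines and 135 to 173 CPM in the H3.3 lines, without a call between the KO lines. Uqcrc2, another core protein, and Uqcrfs1, the Rieske iron-sulfur protein, were not called either.

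Complex IV had the lowest median log2 fold change of the complexes in both readings. Of 16 genes tested, 10 were called lower in H3.3 KO cells and 1 higher, against 12.2% and 11.5% of all genes tested. The median log2 fold change was -0.79, where the other complexes had medians between -0.54 and -0.26. Between the rescued lines 7 were lower and 2 higher, against 8.27% and 9.42% of all genes tested, with a median of -0.45. There the other complexes had medians between -0.31 and -0.1. As a share of all counts, complex IV took from 0.290% to 0.315% in the Daxx lines and 0.200% to 0.233% in the H3.3 lines, and the families did not overlap. Complex I took from 0.315% to 0.338% in the Daxx lines and 0.301% to 0.306% in the H3.3 lines, and complex III between 0.136% and 0.154% against 0.118% and 0.125%. The shares of complex II and complex V overlapped between the families, with complex V between 0.569% and 0.648% over all libraries.

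**Figure D4:**
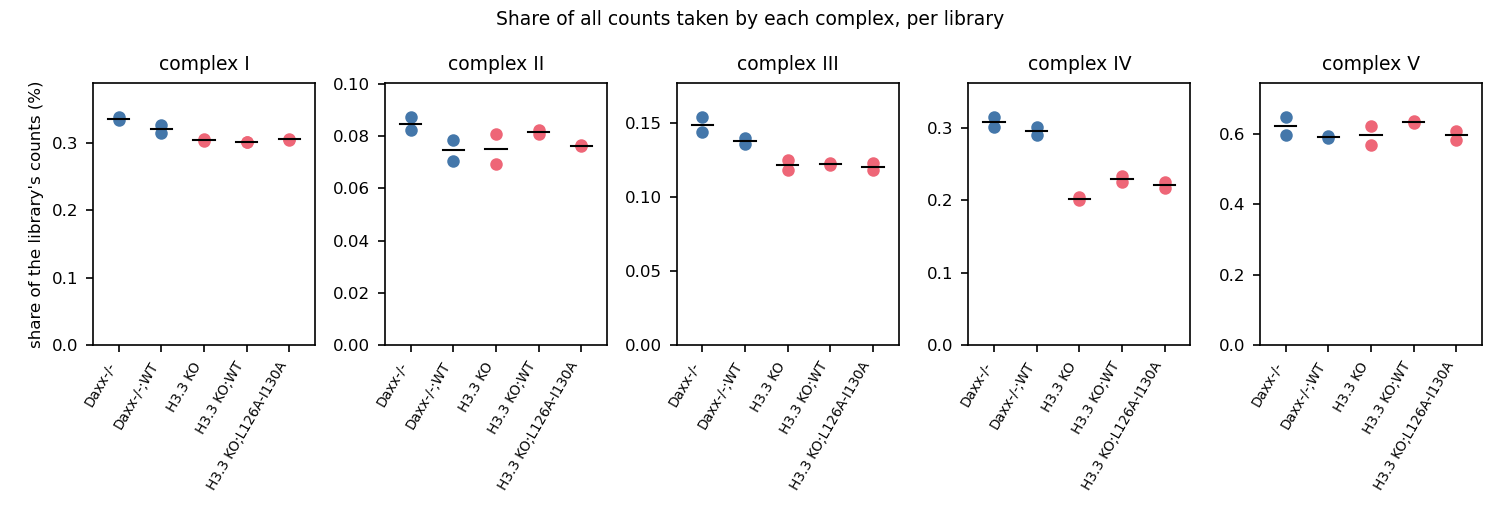
Share of all counts of a library, in percent, taken by the genes of each complex (panels, each with its own axis from 0), by line; points are libraries, bars the mean of 2, blue the Daxx lines and red the H3.3 lines. Complex IV lies at 0.290% to 0.315% in the Daxx lines and at 0.200% to 0.233% in the H3.3 lines, and complex V overlaps.

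Among the complex IV genes, Cox6a1 was at 342 and 396 CPM in Daxx-/- and 163 and 168 CPM in H3.3 KO cells, 2.23-fold lower (log2 fold change -1.16, SE 0.14, adjusted p = 0.00145). Between the rescued lines, at 309 and 333 against 212 and 233 CPM, the difference was 1.44-fold (adjusted p = 0.0283), a call lost with any of the 4 libraries left out and with library size alone. Cox4i1, the common form of subunit 4, was at 487 and 415 CPM in Daxx-/- and 249 and 220 CPM in H3.3 KO cells, 1.92-fold lower (log2 fold change -0.94, SE 0.15, adjusted p = 0.00418). Its neighbour Emc8, listed as Cox4nb, was at 139 and 56.5 CPM in Daxx-/- and 54.0 and 61.4 CPM in H3.3 KO cells, and their exons share bases. Cox7b, Cox8a, Cox5b, Cox6b1, Cox7a2, Cox7a2l and Cox6c were lower between the KO lines as well, by 1.52-fold to 2.22-fold. Of these, Cox7a2 and Cox6c were not called between the rescued lines (adjusted p = 0.0613 and 0.888), and the others were called lower. Cox7c went the other way in both readings, at 180 and 167 CPM in Daxx-/- and 268 and 246 CPM in H3.3 KO cells, 1.48-fold higher (adjusted p = 0.0146). Its call between the KO lines was lost in a fit of those libraries alone and with either H3.3 KO library left out. It was also called between the rescued lines (adjusted p = 0.017), a call lost without replicate 1 of Daxx-/-;WT.

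Paired forms of a complex IV subunit shifted in their balance between the families. Cox6b2, the form of subunit 6B known from testis, was at 17.4 and 32.3 CPM in Daxx-/-, 12.3 and 18.5 CPM in Daxx-/-;WT and between 41.5 and 57.4 CPM in the H3.3 lines. It was 3.65-fold higher in H3.3 KO;WT than in Daxx-/-;WT (log2 fold change 1.87, SE 0.31, adjusted p = 0.00605), a call lost without replicate 1 of Daxx-/-;WT. Between the KO lines its 1.89-fold difference missed the threshold (adjusted p = 0.0537). Its common partner Cox6b1 was at 216, 228, 202 and 221 CPM in the Daxx lines and between 103 and 161 CPM in the H3.3 lines. Per length, Cox6b2 made up between 6.35% and 13.7% of the pair in the Daxx lines and between 24.2% and 36.3% in the H3.3 lines. Cox7a1, the form of subunit 7A known from heart and muscle, made up between 12.1% and 18.1% of the pair with Cox7a2 in the Daxx lines and between 23.4% and 31.4% in the H3.3 lines. Cox7a1 itself was not called (adjusted p = 0.0538 between the rescued lines), and Cox7a2 was lower in H3.3 KO cells (log2 fold change -0.92, SE 0.15, adjusted p = 0.00435). Cox7a2l, a relative that helps join complexes III and IV, lay from 98.6 to 161 CPM in the Daxx lines and 63.3 to 83.1 CPM in the H3.3 lines.

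The c subunit of ATP synthase, which is made from 3 genes for the same mature protein, showed no such split. Atp5g1 held between 15.2% and 24.0%, Atp5g2 between 40.8% and 55.7% and Atp5g3 between 29.2% and 36.8% of their summed level per length, and the families overlapped for each. The forms Cox4i2, Cox6a2, Cox8b and Cox8c each made up less than 1% of their pair or trio per length in every library, with 0.494% as the highest value.

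**Figure D5:**
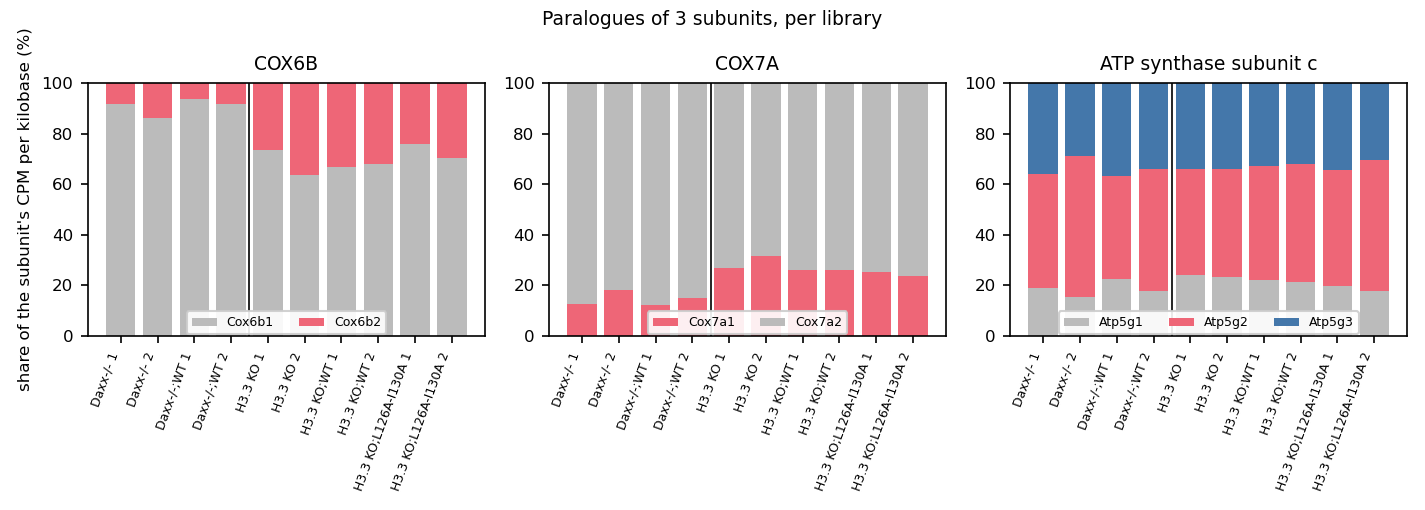
Share of the summed CPM per kilobase, in percent, that each gene contributes to subunits COX6B, COX7A and ATP synthase c (panels), in each library (bars), with the Daxx lines left and the H3.3 lines right of the black line. Cox6b2 and Cox7a1 (red) make up 24.2% to 36.3% and 23.4% to 31.4% in the H3.3 lines and less in the Daxx lines, and the 3 Atp5g genes keep overlapping shares.

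Cox7b2, a form of subunit 7B known from testis, had few counts and no call within a family in the main edgeR fit. It was at 6.65 and 3.33 CPM in Daxx-/-, 0.693 and 0.785 CPM in Daxx-/-;WT, 0.510 and 1.37 CPM in H3.3 KO, 1.65 and 3.83 CPM in H3.3 KO;WT and 0 and 0.109 CPM in the mutant line. Daxx-/- cells had 180 counts against 28 with DAXX, a ratio of 6.8 after scaling (exact 95% interval 4.55 to 10.5, counting error only). H3.3 KO;WT cells had 92 counts against 2 in the mutant line, a ratio of 46.8 (12.6 to 392), and H3.3 KO cells had 31 counts against the same 2, a ratio of 15.7 (4 to 136). The edgeR test gave adjusted p values of 0.0809, 0.0629 and 0.114 for these differences, and 0.382 for H3.3 KO;WT against H3.3 KO. Over the settings, the log2 fold change of the mutant against WT H3.3 ranged from -8.58 to -1.76. Between the KO lines Cox7b2 was called lower in H3.3 KO (log2 fold change -2.41, SE 0.70, adjusted p = 0.0371, lost in 4 alternative settings), and between the rescued lines it was at a log2 fold change of 1.88 (SE 0.71, adjusted p = 0.0951). Cox6a2, the muscle form of subunit 6A, had 28 counts in H3.3 KO;WT and 3 in the mutant line, a ratio of 9.5 (2.93 to 48.8, adjusted p = 0.396). Both genes rest on few counts.

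In complex V, 5 of 17 genes were called lower and 2 higher in H3.3 KO than in Daxx-/- cells, against 12.2% and 11.5% of all genes tested. The lower genes were Atp5g2, Atp5k, Atp5l, Atp5e and Atp5j2, by 1.42-fold to 2.15-fold, which encode the c ring and small membrane or stalk subunits. Between the rescued lines Atp5l and Atp5e were called lower (adjusted p = 0.0164 and 0.0465). Atp5g2, Atp5k and Atp5j2 were not called there (adjusted p = 0.0719, 0.181 and 0.769). Atp5h, for the d subunit of the peripheral stalk, was higher, at 141 and 110 CPM in Daxx-/- and 216 and 207 CPM in H3.3 KO cells (1.68-fold, adjusted p = 0.0102). The call was lost in a fit of the KO libraries alone and with either H3.3 KO library left out. Atp5h was not called between the rescued lines (adjusted p = 0.155). Atp5s was higher too, at 4.27 and 6.93 CPM against 16.3 and 12.2 CPM (2.55-fold, adjusted p = 0.0277, lost in 4 alternative settings), and lay above the Daxx lines in all 6 libraries of the H3.3 lines. The catalytic head did not follow: Atp5b was at 2310 and 2060 CPM in Daxx-/- and 2260 and 2310 CPM in H3.3 KO cells, and Atp5a1 at 1440 and 1240 CPM against 1310 and 1020 CPM. Between the rescued lines Atp5b was 1.41-fold higher (adjusted p = 0.0178), a call lost with any of the 4 libraries left out. Atp5sl was at 39.5 and 25.2 CPM in Daxx-/- and 16.7 and 21.7 CPM in H3.3 KO cells (adjusted p = 0.077).

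With all 6 H3.3 libraries set against all 4 Daxx libraries, 33 of 81 genes lay below without overlap (40.7%, background 11.4%) and 8 above (9.88%, background 11.4%). The 33 comprised 14 genes of complex I, 2 of complex II, 2 of complex III, 9 of complex IV and 6 of complex V. The 8 were Ndufc2, Ndufv2, Sdha, Uqcrb, Cox6b2, Cox7c, Atp5h and Atp5s.

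Short transcripts differed between the families as a class, and most respiratory chain transcripts are short. The median annotated length of the tested genes of the chain was 732 bases, and that of all genes tested with a length was 2846 bases. Transcripts under 800 bases took between 8.10% and 9.23% of the counts in the Daxx lines and between 6.17% and 6.54% in the H3.3 lines. Between the KO lines, the 406 other genes under 800 bases had a median log2 fold change of -0.30, and 24.6% of them were called lower. The 44 chain genes of that length had a median of -0.56, and 23 of them were called lower. Between the rescued lines the medians were -0.13 and -0.34, and 15.5% of the others and 13 of the 44 were called lower. The 21 chain genes of the next class, from 800 bases, had medians of -0.26 between the KO lines and -0.11 between the rescued lines. The 1510 other genes of that class had medians of -0.09 and -0.06. In the class after that, which holds Ndufv1 at 1661 and Sdha at 2900 bases, 13 chain genes had medians of 0.07 and 0.11. Between the KO lines, 1 of these 13 was called lower and 2 higher, against 10.9% and 12.6% of the other genes of that length. Those other genes had medians of 0.0 between the KO lines and 0.01 between the rescued lines. Atp5a1, Atp5b and Ndufs1 are also in that class. The longest chain gene, Sdhc, at 3171 bases, was called lower in both readings. The 77 tested genes of the cytosolic ribosome, which are also short, were called lower in 47 cases and higher in 1 between the KO lines, with a median of -0.56, and lower in 26 cases between the rescued lines. The part of transcript length in the differences of the chain genes was not tested.

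Genes with an NRF1 core in the promoter window had a median log2 fold change of -0.81 between the KO lines (10 genes), and those without it -0.28 (58 genes). For the ETS core the medians were -0.84 (16 genes) and -0.27 (52 genes), and for the YY1 core 0.03 (8 genes) and -0.42 (60 genes). Atp5k, Atp5l, Cox6a1, Sdhb and Uqcr11 held both the NRF1 and the ETS core, so those splits share genes. The medians are descriptions over few genes, and the part of transcript length or of the Nrf1 level in them was not tested. Nrf1 itself was at 84.1 and 56.2 CPM in Daxx-/- and 52.7 and 47.9 CPM in H3.3 KO cells (adjusted p = 0.121), and was lower between the rescued lines, at 88.5 and 75.1 against 50.9 and 42.6 CPM (log2 fold change -0.81, SE 0.21, adjusted p = 0.0284). Gabpa was at 220 and 190 CPM against 223 and 202 CPM between the KO lines. Esrra, an orphan receptor that drives genes of respiration, and Tfam, which packs mitochondrial DNA, were not called in any of the 6 comparisons, and the coactivator gene Ppargc1a was not tested because its level was too low.

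Other mitochondrial and metabolic genes were counted in the same fit, where 11.5% of all genes tested were called higher and 12.2% lower between the KO lines, and 9.42% and 8.27% between the rescued lines. Several of the counts that follow lie near these shares. Among 15 tested regulators and mitochondrial DNA factors, 1 was higher (Tfb1m) and 2 were lower (Polrmt and Polg) between the KO lines with a median of -0.30, and 1 was higher (Tfb1m) and 2 were lower (Nrf1 and Ssbp1) between the rescued lines with a median of -0.26. Tfb1m, which modifies mitochondrial ribosomal RNA, was at 12.5 and 12.1 CPM in Daxx-/- and 33.9 and 32.6 CPM in H3.3 KO cells (log2 fold change 1.44, SE 0.16, adjusted p = 0.00107). Of 28 tested assembly factors, 6 were higher and 2 lower between the KO lines with a median of 0.15, and 4 were higher and 1 lower between the rescued lines with a median of 0.32. Foxred1, an assembly factor of complex I, was at 25.8 and 23.2 CPM against 41.7 and 40.4 CPM between the KO lines (adjusted p = 0.00684). Of 7 other subunits and carriers, 1 was higher and 2 lower between the KO lines, and 1 higher and 1 lower between the rescued lines. Cyct, the testis form of cytochrome c, was at 7.87 and 8.54 CPM in Daxx-/-, 118 and 108 CPM in H3.3 KO, 54.3 and 68.2 CPM in H3.3 KO;WT and 3.23 and 24.2 CPM in the mutant line. The difference between the KO lines was called (log2 fold change 3.78, SE 0.71, adjusted p = 0.00743), and that between the mutant line and H3.3 KO was not (adjusted p = 0.0724).

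Of 13 genes of the tricarboxylic acid cycle, 3 were higher and 3 lower between the KO lines and 3 higher and 1 lower between the rescued lines. Sucla2, a subunit of succinate-CoA ligase, was at 75.5 and 66.6 CPM in Daxx-/- and 174 and 187 CPM in H3.3 KO cells (log2 fold change 1.34, SE 0.12, adjusted p = 0.000657). Of 17 glycolysis genes, 0 were higher and 4 lower between the KO lines, and 1 was higher and 1 lower between the rescued lines. Pdk1, the kinase that shuts pyruvate out of the cycle, was the 1 called gene of these lists that rose within a family, at 52.7 and 43.3 CPM in H3.3 KO and 117 and 84.0 CPM with the mutant (log2 fold change 1.06, SE 0.20, adjusted p = 0.0468). The median log2 fold change of the 17 genes in that comparison was 0.56. Of 76 genes of the mitochondrial ribosome, 4 were higher and 11 lower between the KO lines, 1 higher and 9 lower between the rescued lines, and 2 lower with the mutant against H3.3 KO. No other gene of these lists was called within a family of lines.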

How the data were processed

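PolyA RNA-Seq of 10 mESC libraries was analysed. Per the labels' processing notes and the paper, the authors aligned reads with Bowtie (mm9) and estimated expression with RSEM. The deposited values, named TPM, are expected counts per gene, with no correction for library size or length. They were rounded. Genes reaching 1 CPM in 2 or more libraries entered edgeR 4.0.16 under R 4.3.3, with 1 quasi-likelihood fit of all libraries, median-of-ratios factors, Benjamini-Hochberg adjustment over 13201 genes. A gene was called at an adjusted p under 0.05, without a fold minimum. The SE is the log2 fold change divided by the root of F. Alternatives used limma 3.58.1 with pseudocounts of 1 and 0.1 before the log2 scale, DESeq2 1.42.0, TMM, library size, other filters, each comparison alone, a replicate block, and left-out libraries. The comparison of rescued lines, the length classes and the comparison of 6 with 4 libraries were added after the data were seen. The fit was tested on simulated data. The kit is not stated to keep strand, so overlapping genes (23 of the 84) are not separated. Lengths come from GENCODE M21 and promoters from RefSeq, both GRCm38, by symbol; no coordinate of the files was used. Members and lists were chosen with earlier results of these data known. Genes were named by the 3 lowest p of a comparison, by highest or lowest CPM of a complex, and by preset roles (paralogues, complex II, core complex I, regulators); others were chosen after their values were seen. Intervals cover counting error only where so stated. The values of 1 tested gene are counted in the totals but not reported here.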

Additional observations from a re-analysis of the deposited data

How the results depend on the processing

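The counts of chain genes called within a family of lines moved with the tool. With DAXX the count of 0 became 5 with DESeq2, 4 with the replicate block, 2 with a filter of a mean of at least 5 CPM, and 1 with limma at either pseudocount, while leaving out a library gave 0 to 4, the 4 without replicate 1 of Daxx-/-. With the mutant against H3.3 KO it became 3 with DESeq2 and 3 with the replicate block, and with the mutant against WT H3.3 it became 1 (Cox7b2) with DESeq2, with limma on log2(CPM + 0.1), with no filter on low values and with the replicate block. The test of the difference between the DAXX and the WT H3.3 transgene gave 3 with DESeq2. The median log2 fold change of mutant against WT H3.3 lay between -0.07 and 0.08 with a library left out.

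Between the KO lines the count of 36 became 20 in a fit of these libraries alone, 12 with a 2-fold minimum, and 14 to 36 with a library left out. Between the rescued lines the count of 26 became 4 with a 2-fold minimum and 3 to 11 with a library left out, and the median log2 fold change became -0.15 with library size alone. The share of complex I in replicate 2 of H3.3 KO;WT, 0.301%, moved by more than the small spread of its line when it was taken over the genes tested only. Of the values and counts that answer a comparison, 205 settings gave the same result and 24 moved; for single genes, 421 were the same, 62 fell short of the threshold, 20 newly passed it and 0 reversed.

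No source says that a replicate number marks a shared batch or day. Deviations of same-numbered libraries correlated between -0.04 and 0.57 over 10 pairs of lines. The correlation was above 0.1 in 7 pairs, with 0.566 for Daxx-/- and Daxx-/-;WT. It was at or below 0.1 in 3, all of which include H3.3 KO. Most pairs thus shared some deviation by number, which the main fit did not model and the replicate block did. With the replicate block the calls between the KO lines came to 44 and those between the rescued lines to 37. With 2 libraries a line, the 95% intervals of the log2 fold changes within a family had a median half-width of 0.35.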
